A study of Mus musculus with 1073 samples.

Results

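*Hhex*, *Mecom*, *Hlf*, *Mllt3*, *Meis1* and *Msi2* are 6 regulators known from adult haematopoietic stem cells, and they were followed here through 13 populations sorted from the mouse yolk sac to see which were carried by yolk sac progenitors and which by endothelium only. They were taken as a named list, and all 6 were among the 15967 genes of the filtered tables. Each population was dissociated, sorted, and captured cell by cell on a Fluidigm C1 chip, which makes full-length cDNA from each cell, so a sample is 1 cell. After the authors' filter, 926 of 1073 captured cells remained. A level is given in CPM, counts brought to a common library size by the authors' size factors, and a cell was said to carry a transcript when it held 1 or more counts of it.

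Extraembryonic mesoderm came from *Flk1*-GFP/+ reporter embryos at E7.25 (73 cells of 1 sequencing lane and 74 of another) and E7.75 (140 cells). GFP marks cells that use the *Flk1* (*Kdr*) gene. All other cells came from C57BL/6 embryos. Haematopoietic progenitors (HPC, called erythro-myeloid progenitors in the labels) were TER119-CDH5+CD41+ at E8.25 (73 cells) and E8.5 (89 cells), and TER119-CDH5-CD45+CD41low at E9.5 (46 cells) and E10.5 (87 cells). Endothelium (Endo) was CDH5+ and negative for TER119 and CD41 at E8.5 (79 cells), and also negative for CD45 at E10.5 (61 cells). Megakaryocytes (Mk) were CD41+ at E8.5 (37 cells) and CD41high at E10.5 (73 cells), without TER119 or CDH5. Primitive erythrocytes (EryP) were TER119+ at E8.5 (66 cells) and E10.5 (3 cells), and macrophages (Mac) were CD45+ and negative for the other markers at E10.5 (25 cells). Embryos were pooled, and no embryo was named for a cell. Each population was sequenced in 1 lane, or 2 for each mesoderm stage, and no label named a capture. Cells were therefore not replicates of a stage, and no test between populations was made. Differences are given by size, and the exact 95% intervals of shares and sums cover counting error only, since reads of a cell are not independent molecules.

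All of these genes act in the nucleus or on RNA. HHEX is a homeodomain repressor needed in early endothelium, liver and blood. MECOM (EVI1) is a zinc-finger factor, HLF a PAR bZIP factor, and MEIS1 a TALE homeodomain factor that binds DNA beside PBX and HOX proteins; each is needed to keep adult stem cells. MLLT3 reads acylated histones within the super elongation and DOT1L complexes and also acts in erythroid and megakaryocytic cells, and MSI2 is an RNA-binding protein of the Musashi kind. Yolk sac progenitors arise before adult-type stem cells, in part from endothelium that expresses CDH5.

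The stretch of 250 bases upstream of the start site is shown for the pair of members found in nearly every progenitor (*Hhex* and *Meis1*) and for the pair whose presence was restricted (*Mecom* and *Hlf*), so that both kinds of pattern can be set side by side. The sequences are from RefSeq on GRCm38.p6, written 5′ to 3′ along the gene. Capitals mark the letters of 3 families of short blood and endothelial motifs on either strand, which are GATA (the letters GATA with A or T before and A or G after), ETS (GGAAG with A or C before it) and RUNX (TGNGGT with C or T as N).
Hhex, chr19:37434591-37434840, plus strand: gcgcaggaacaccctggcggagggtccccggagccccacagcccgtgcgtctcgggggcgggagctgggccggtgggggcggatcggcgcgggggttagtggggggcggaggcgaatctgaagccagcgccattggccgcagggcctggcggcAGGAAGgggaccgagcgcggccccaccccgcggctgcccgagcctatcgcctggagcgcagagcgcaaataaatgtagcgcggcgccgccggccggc
Meis1, chr11:19018970-19019219, minus strand: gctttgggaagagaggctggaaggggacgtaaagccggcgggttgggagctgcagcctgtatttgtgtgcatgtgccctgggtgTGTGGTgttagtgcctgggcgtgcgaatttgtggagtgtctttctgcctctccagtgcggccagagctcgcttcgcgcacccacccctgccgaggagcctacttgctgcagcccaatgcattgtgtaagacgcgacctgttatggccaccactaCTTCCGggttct
Mecom, chr3:30013205-30013454, minus strand: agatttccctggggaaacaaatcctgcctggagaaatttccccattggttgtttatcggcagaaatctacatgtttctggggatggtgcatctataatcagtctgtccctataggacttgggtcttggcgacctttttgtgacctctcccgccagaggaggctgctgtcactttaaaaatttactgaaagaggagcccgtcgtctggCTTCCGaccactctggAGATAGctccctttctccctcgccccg
Hlf, chr11:90390918-90391167, minus strand: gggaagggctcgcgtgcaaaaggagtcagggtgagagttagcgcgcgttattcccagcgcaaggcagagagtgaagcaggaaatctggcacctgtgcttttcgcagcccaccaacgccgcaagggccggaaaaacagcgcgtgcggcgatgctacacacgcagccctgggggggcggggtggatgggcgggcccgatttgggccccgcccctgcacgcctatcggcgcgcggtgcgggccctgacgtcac
Of 32851 promoters of this length, 26.5% held a GATA match, 39.2% an ETS match and 18.6% a RUNX match. *Hhex* held 1 ETS match, *Meis1* held 1 ETS and 1 RUNX match, and this *Mecom* start site held 1 GATA and 1 ETS match, while the *Hlf* stretch held none of these letters. The promoters of all 6 members were found in the reference, some with more than 1 start site. Matches describe the letters only.

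The members lay on 4 chromosomes of GRCm38. *Hhex* spans chr19:37434810-37440731 on the plus strand with 5056 bases of exon. The others are on the minus strand, with *Mecom* at chr3:29951296-30548008 (12427 bases of exon), *Hlf* at chr11:90336536-90390895 (6681 bases), *Mllt3* at chr4:87769925-88033364 (12004 bases), *Meis1* at chr11:18879817-19018985 (10532 bases) and *Msi2* at chr11:88339382-88718513 (10405 bases). The libraries do not keep the strand. Of the *Meis1* exon bases, 8.51% overlap the antisense gene *Gm16140* and 9.77% the transcript *Gm37818*, and 0.652% of those of *Mecom* overlap the antisense gene *Mecomos*, and reads from these stretches cannot be told apart.

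Depth was high, with 483830 to 5943204 counts per cell and population medians of 1555237 to 3536330 counts. Each sorted population carried the markers of its name, and several carried markers of other lists too. All 8 endothelial markers were carried by at least 50% of cells in both Endo populations, all 4 progenitor markers in all 4 HPC populations, and all markers of the lineage in Mk, EryP and Mac. Early HPC also carried 7 of the 8 endothelial markers, against 3 at E9.5 and 2 at E10.5. E8.5 Mk also carried all 4 progenitor and all 6 primitive erythroid markers. The median summed level there was 25317 CPM for the erythroid and 183.6 CPM for the megakaryocyte markers. Early HPC carried 3 of 6 primitive erythroid markers, and HPC of E9.5 and E10.5 carried 2 of 5 macrophage markers (*Csf1r* and *Cx3cr1*). Transcripts of both sexes, which are not found in a single embryo's cell, were seen in 0 to 74.7% of the cells of a population, highest in E8.5 Endo (59 of 79 cells). Several values moved when those cells were left out, and the value without them is then given beside the main one.

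Across the 78 pairs of member and population, 46 reached presence in at least 50% of cells. *Msi2* did so in 13 populations, *Hhex* and *Meis1* in 11 each, *Mllt3* in 8, *Mecom* in 3 and *Hlf* in 0. No member was restricted to endothelium. That label needed presence in at least 50% of Endo and in under 10% of every blood population of the stage, and 0 of 6 members met it at E8.5 and 0 of 6 at E10.5. With 10 or more counts asked of a cell, 32 pairs reached 50%. The pairs lost were *Hhex*, *Meis1* and *Mllt3* in both mesoderm stages, and *Mllt3* in E8.25 HPC and E10.5 Mk. *Mecom* was lost in E8.25 HPC and E8.5 Endo, and *Msi2* in Endo of both stages, Mac and E10.5 EryP.

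**Figure D1:**
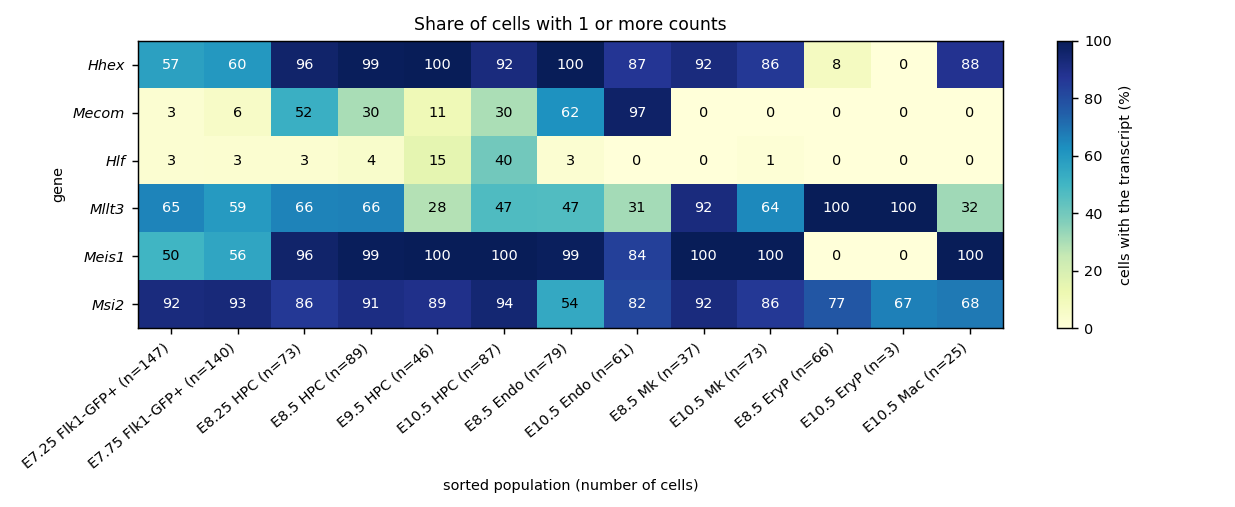
Share of cells (%) with 1 or more counts of each gene (rows) in each sorted population (columns, with the number of cells). *Hhex*, *Meis1* and *Msi2* were in most cells of every progenitor population, *Mecom* was highest in endothelium, and *Hlf* stood out only in E10.5 HPC.

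*Mecom* was the member nearest to an endothelial pattern. In E10.5 Endo it was carried by 96.7% of cells (exact 95% interval 88.7 to 99.6), with a median of 24.3 CPM, a mean of 181 CPM and a highest cell of 2347 CPM. In E8.5 Endo it was in 62.0% of cells (50.4 to 72.7), at a median of 1.16, a mean of 31.6 and a highest cell of 463 CPM. The E10.5 share stood apart from every other population, its interval overlapping none of them.

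Progenitors carried *Mecom* too, in fewer cells as the stage rose from E8.25 to E9.5. The share was 52.1% at E8.25 (40.0 to 63.9), 30.3% at E8.5 (21.0 to 41.0), 10.9% at E9.5 (3.63 to 23.6) and 29.9% at E10.5 (20.5 to 40.7). Mean levels were 42.4, 13.0, 1.39 and 7.94 CPM from E8.25 to E10.5, but without the cells that held transcripts of both sexes they were 23.8 CPM at E8.25 and 6.46 CPM at E8.5, so that E8.5 no longer stood above E10.5. Single HPC reached 850 CPM at E8.25 and 167 CPM at E10.5. Neighbours in the order of shares were not separated, since each interval overlapped the next. In mesoderm it was in 2.72% (E7.25) and 5.71% (E7.75) of cells. No count of *Mecom* was found in Mk, EryP or Mac of either stage, where 0 of 37 and 0 of 73 Mk allow shares with the transcript of up to 8.11% and 4.11%. The gate of the HPC changed from CDH5+ to CDH5- between E8.5 and E9.5, and the flow cell changed with it, so stage, gate and flow cell cannot be told apart in that step.

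*Hlf* was a progenitor transcript of the last stage. In E10.5 HPC it was in 40.2% of cells (29.9 to 51.3), with a median of 0, a mean of 27.3 and a highest cell of 448 CPM. It was in 15.2% at E9.5 (6.34 to 28.9), 4.49% at E8.5 (1.24 to 11.1) and 2.74% at E8.25 (0.334 to 9.55). The E10.5 interval did not overlap that of E9.5, and the 3 earlier stages overlapped each other. The mean was 0.734 CPM at E9.5, where no cell passed 11.8 CPM.

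Outside HPC *Hlf* was rare. It was found in 11 of 631 cells, of which 8 were mesoderm, 2 were E8.5 Endo that both held transcripts of both sexes, and 1 was an E10.5 Mk with a single count. None of 61 E10.5 Endo carried it, which allows a share of up to 4.92%.

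*Hhex* was broad, and EryP was the exception. It was carried by at least 92.0% of HPC at each of the 4 stages, by all E8.5 Endo and 86.9% of E10.5 Endo, by 91.9% and 86.3% of Mk and by 88.0% of Mac. Those 9 populations formed a run whose neighbours in order overlapped. The mesoderm followed apart from them, at 57.1% (48.7 to 65.3) and 60.0% (51.4 to 68.2), and E8.5 EryP came last at 7.58% (2.51 to 16.8) with 0 of 3 E10.5 EryP. By mean level, Endo led at 204 and 186 CPM, Mk of E10.5 had 164 CPM, the 4 HPC populations had 100.6 to 123.5 CPM, the mesoderm had 53.9 and 57.5 CPM, and E8.5 EryP had 2.28 CPM, or 0.0151 CPM without the cells of both sexes.

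The median *Hhex* level was 59.8 to 95.2 CPM in HPC, 152.9 in E8.5 Endo and 69.0 in E10.5 Endo, so that the endothelial lead was plain at E8.5 and small at E10.5. The mesoderm had medians of 0.680 and 0.830 CPM, against highest cells of 770 and 599 CPM. Carriers and cells without it lay side by side in the same gate.

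*Meis1* was the most abundant member in progenitors, and it was not detected in primitive erythrocytes. At least 95.9% of cells carried it in each HPC population, in Mk of both stages and in Mac and E8.5 Endo. Its median in HPC was 286, 540, 402 and 363 CPM from E8.25 to E10.5. Mk of E10.5 had the highest level, with a lowest cell of 0.607, a median of 612 and a highest cell of 2162 CPM, and Mk of E8.5 had a median of 305 CPM. Endothelium was lower, with a median of 182 CPM at E8.5 and 42.8 CPM at E10.5, and E10.5 Mac had 14.3 CPM. None of the 66 E8.5 EryP and none of the 3 E10.5 EryP held a count of it, and 0 of 66 leaves room for 4.55% of cells. Mesoderm had it in 50.3% (E7.25) and 55.7% (E7.75) of cells.

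*Mllt3* followed another order, with EryP at the top. Every EryP carried it, at a median of 333 CPM and a highest cell of 1543 CPM at E8.5, where the lowest cell had 0.872 CPM. Mk of E8.5 came next, with 91.9% of cells and a median of 146.9 CPM, and Mk of E10.5 had 64.4% and 2.53 CPM. HPC carried it in 65.8% and 66.3% of cells at E8.25 and E8.5, in 28.3% at E9.5 (16.0 to 43.5) and in 47.1% at E10.5 (36.3 to 58.1). Endothelium had it in 46.8% and 31.1% of cells, with medians of 0 at both stages, and the E8.5 share was 35.0% without the cells of both sexes. Only the step from E8.5 Mk to E8.5 HPC in this order had intervals that did not overlap. With all captured cells the E8.5 Mk share was 71.7%, within the E8.5 HPC interval of filtered cells (55.5 to 76.0). The E8.5 Mk mean was then 110 CPM, against 165.4 CPM in the filtered cells, so this separation depended on the authors' filter.

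*Msi2* was found in most cells of all 13 populations at 1 or more counts, though least in endothelium of E8.5. With 10 or more counts it was in 31.6% of E8.5 Endo, 45.9% of E10.5 Endo and 36.0% of Mac. Its share was 86.3 to 94.3% in HPC, 91.8 and 92.9% in mesoderm, 91.9 and 86.3% in Mk, 77.3% in E8.5 EryP, 68.0% in Mac and 54.4% (42.8 to 65.7) in E8.5 Endo, the lowest. No neighbours in that order were separated by their intervals. Median levels were low throughout, from 0.568 CPM in E8.5 Endo to 29.5 CPM in E10.5 HPC.

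**Figure D2:**
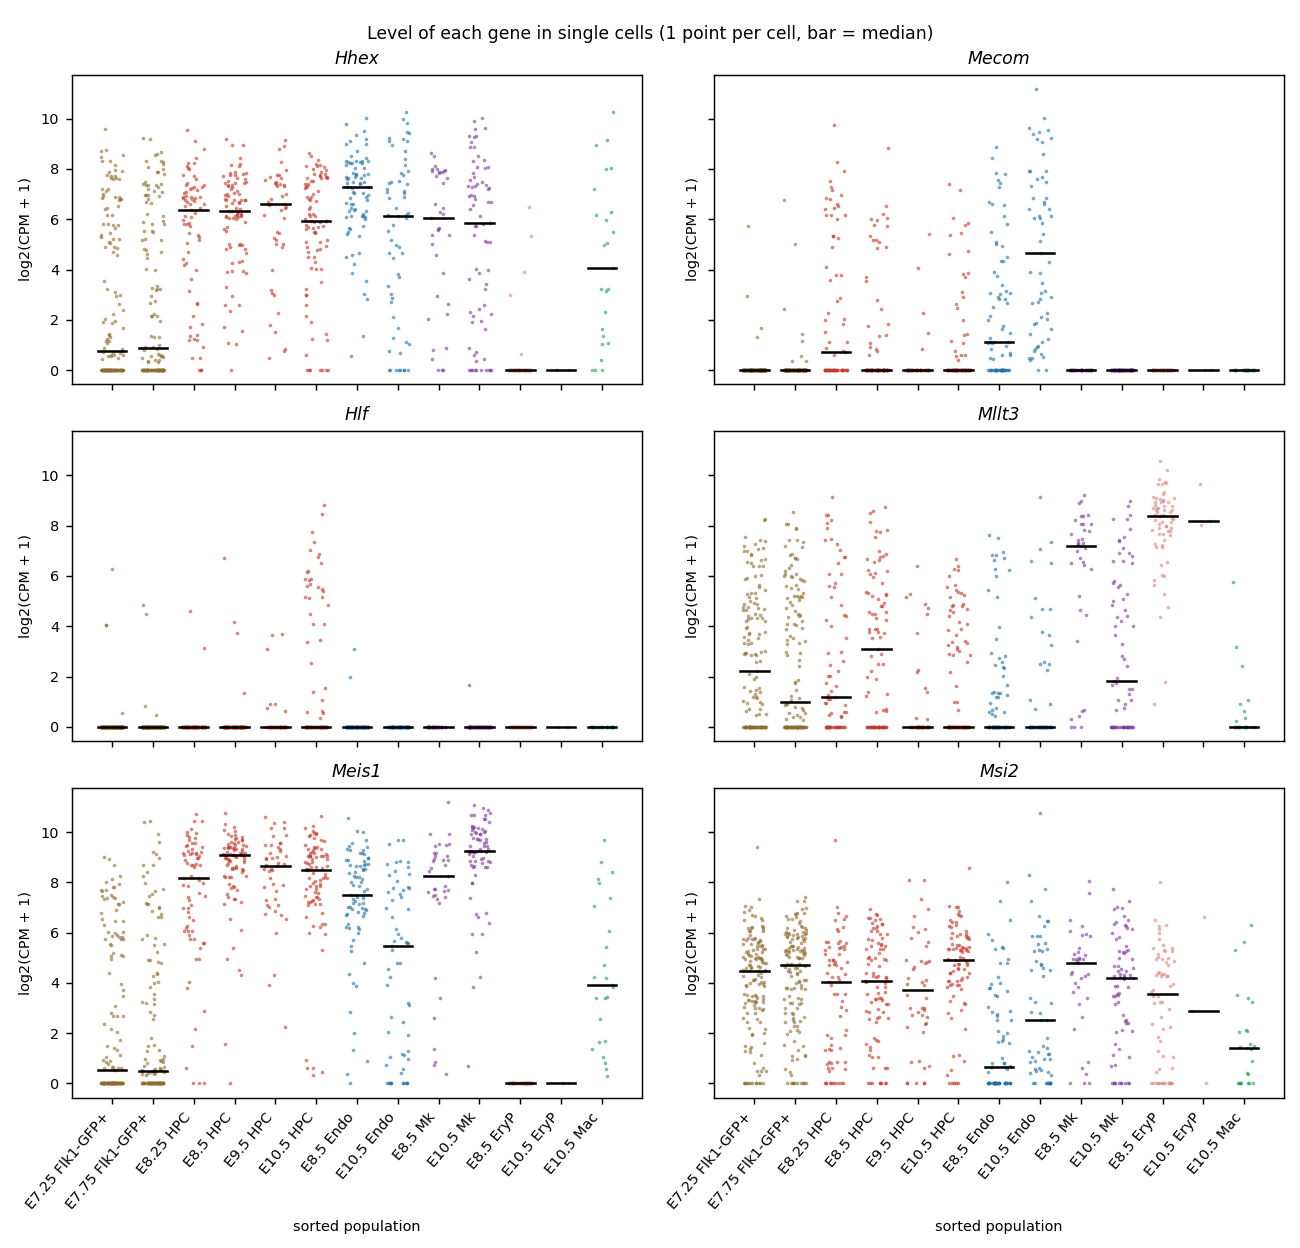
Level of each gene in single cells as log2(CPM + 1) (vertical axis) in the 13 populations (horizontal axis), 1 point per cell, with a bar at the median and colour by cell type. *Meis1* lay high in all progenitors and megakaryocytes and at 0 in all erythrocytes, *Mllt3* lay highest in erythrocytes, and most points of *Hlf* and many of *Mecom* lay at 0.

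Per kilobase of exon, which allows genes to be compared, *Meis1* had the highest mean of the 6 members in E10.5 HPC (39.2 CPM per kb). *Hhex* followed at 19.9, *Hlf* at 4.08, *Msi2* at 3.96, *Mllt3* at 1.01 and *Mecom* at 0.639 CPM per kb. In E10.5 Endo the order was *Hhex* at 36.7, *Mecom* at 14.5, *Meis1* at 13.0, *Msi2* at 5.38, *Mllt3* at 1.64 and *Hlf* at 0 CPM per kb, with the *Msi2* mean of 56.0 CPM at 29.4 CPM without the cells of both sexes. *Mllt3* led only in EryP, at 30.7 CPM per kb at E8.5.

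The endothelium was set against HPC of its own stage and flow cell, as log2 of mean CPM + 1, with 2-fold as the size that counts. At E8.5, 1 of 6 members was higher in Endo, where 18.4% of all genes were, and 3 of 6 were lower, where 13.3% of all genes were. *Mecom* was higher in Endo by 1.22, and the lower members had differences of -1.14 (*Hlf*), -1.41 (*Mllt3*) and -1.14 (*Msi2*). *Hhex* (0.84 higher) and *Meis1* (-0.84) stayed within 2-fold. Without the cells that held transcripts of both sexes, the *Mecom* difference was 2.65, and *Mecom* was in 75.0% of the remaining Endo. With a pseudocount of 10 CPM only *Mllt3* of the 4 passed, and *Mecom* had a difference of 0.85. The *Hlf* difference rested on 4 of 89 HPC and 2 of 79 Endo. The medians over cells gave *Meis1* a difference of -1.56.

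At E10.5, 1 of 6 members was higher in Endo (27.7% of all genes) and 2 of 6 were lower (23.5% of all genes). *Mecom* was 22.8-fold higher in CPM, a log2 difference of 4.34. *Hlf* had a mean of 27.3 CPM in HPC and no count in 61 Endo cells, which allows carriers in up to 4.92% of them. No fold is given for *Hlf*, since a carrier in HPC held a median of 60 counts. *Meis1* was 3.03-fold lower. With a pseudocount of 10 CPM the log2 difference of *Hlf* was -1.90, and by medians, which are 0 in both populations, it was 0.00. *Hhex* (0.88), *Mllt3* (0.66) and *Msi2* (0.43) were within 2-fold. *Msi2* rested on the mean, since its median differed by -2.40 on the same scale, and without the cells of both sexes its mean difference was -0.46. The median difference of the 6 members was -0.99 at E8.5 and 0.54 at E10.5, against -0.05 and 0.03 for all genes compared. Of 4 mesenchyme markers 3 (*Col1a2*, *Acta2* and *Tagln*) were higher in Endo at both stages, with a summed level of 0 to 1411 CPM in E8.5 Endo and 0 to 164.7 CPM in E8.5 HPC, and of 0 to 6441 against 0 to 55.6 CPM at E10.5, and their part in these differences was not tested. All 6 primitive erythroid markers were lower in E8.5 Endo, with a median difference of -6.38 and a summed level of 0 to 286.7 CPM in Endo and 4.40 to 36590 CPM in HPC, 2 of them in no Endo cell. All 5 macrophage markers were lower in E10.5 Endo, with a median difference of -6.65, and they were at 0 in all its cells and at 0 to 5977 CPM in HPC. The part of these lists was not tested either.

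**Figure D3:**
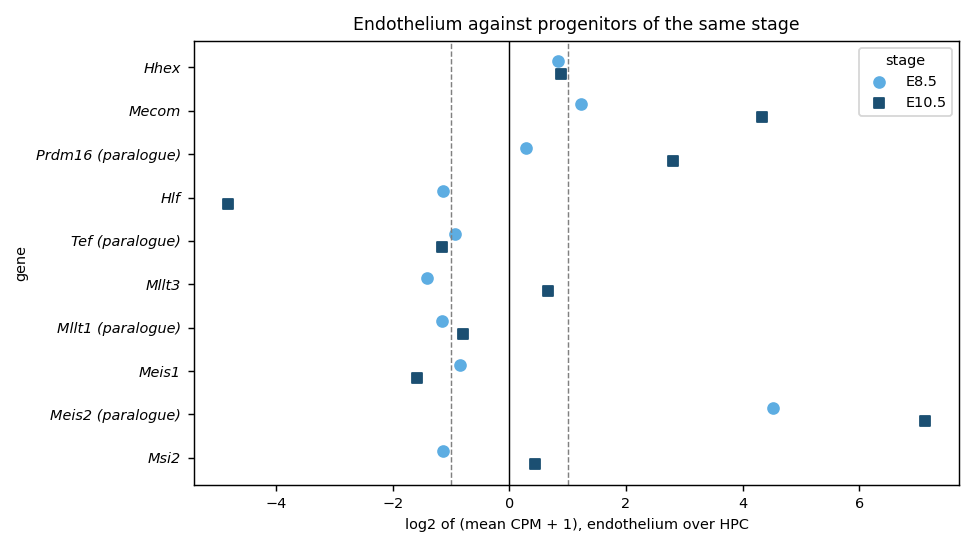
Difference between endothelium and HPC of the same stage (log2 of mean CPM + 1, horizontal axis) for the 6 genes and their measured paralogues (vertical axis) at E8.5 (circles) and E10.5 (squares), with dashed lines at 2-fold. *Mecom* and *Meis2* lay on the endothelial side at both stages, and *Hlf* lay on the progenitor side.

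Related genes were measured in the same populations. *Meis2*, the closest relative of *Meis1*, was in 97.5% and 95.1% of E8.5 and E10.5 Endo, at means of 114.9 and 515.8 CPM, and in 8.70 to 15.1% of HPC. Its difference was 4.52 at E8.5 and 7.12 at E10.5 on the log2 scale, in the opposite direction to *Meis1*. Both genes were found together in 96.2% of E8.5 Endo and 80.3% of E10.5 Endo. *Prdm16*, the paralogue of *Mecom*, was 8.91-fold higher in E10.5 Endo than in HPC, at 27.4 against 3.07 CPM, and *Msi1* was carried by 95.9% of E7.25 mesoderm and 73.6% of that of E7.75 and by at most 4.11% of cells of any later population. Of the 7 paralogues listed, *Dbp* was not in the table, and *Tef*, a relative of *Hlf*, was lower in E10.5 Endo, with a difference of -1.15.

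Partners of the members were compared in the same way. Of all genes, 27.7% were higher and 23.5% lower in E10.5 Endo, and 18.4% and 13.3% in E8.5 Endo. The counts below are to be read against these shares. Of 8 TALE and HOX partners of MEIS1, 3 were higher in E10.5 Endo (*Pbx2*, *Pbx3* and *Pknox1*) and *Hoxa7* was lower. Of 10 MLLT3 partners, *Aff3* was higher at E8.5 and *Mllt6*, *Aff1* and *Aff4* at E10.5, with *Ell2* the 1 lower at both. *Ctbp2*, a co-repressor bound by MECOM, and *Tle1* and *Tle4*, bound by HHEX, were higher in E10.5 Endo. Of 11 surface and reporter genes used for adult stem cells, 6 were higher in E10.5 Endo, *Procr*, *Fgd5* and *Robo4* among them, while *Ly6a* and *Pdzk1ip1* were lower. Of 16 other stem cell factors, 2 were higher (*Erg* and *Sox17*) and 8 lower, among them *Runx1*, *Gata2*, *Myb* and *Gfi1*. Of 6 RNA-binding genes, *Lin28a* and *Lin28b* were lower.

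Between stages *Hhex*, *Meis1* and *Msi2* stayed within 2-fold by mean level in HPC, and each of the others passed it in at least 1 step. By medians *Msi2* was more than 2-fold higher at E10.5 than at E9.5, and by means without the cells of both sexes its difference there was 0.99. From E8.25 to E8.5, *Mecom* differed by -1.63, so 1 of 6 members was lower (6.39% of all genes) and 0 were higher (5.79%). By medians that call was lost, with *Mecom* at -0.72 and *Mllt3* at 1.92. From E8.5 to E9.5, *Mecom* differed by -2.55 and *Mllt3* by -2.82, so 2 were lower (16.3%) and 0 higher (12.2%). Without the cells of both sexes the *Mecom* step was -1.63. In the same step 6 of 6 primitive erythroid markers were lower (median -6.51, summed level 4.40 to 36590 CPM at E8.5 and 0 to 47.6 CPM at E9.5), 7 of 8 endothelial markers were lower (median -1.86) and 4 of 5 macrophage markers were higher (median 2.33), and their part was not tested. From E9.5 to E10.5, within 1 gate and flow cell, *Hlf* was higher by 4.03 and *Mecom* by 1.90, so 2 were higher (10.6%) and 0 lower (8.80%), while *Mllt3* was higher by 1.00, just short of 2-fold. A pseudocount of 10 CPM left only *Hlf* past it. Here 4 of 6 primitive erythroid, 3 of 8 endothelial and 3 of 5 macrophage markers were higher, and their part was not tested.

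Over the longer step from E8.5 to E10.5, *Hlf* was higher by 3.50 and *Mllt3* differed by -1.82, so that 1 of 6 was higher (11.0% of all genes) and 1 lower (13.1%). Of the primitive erythroid markers 5 of 6 were lower over this step, and all 5 macrophage markers were higher. *Hhex* (-0.17), *Meis1* (-0.33) and *Msi2* (0.50) stayed within 2-fold. The *Mecom* difference was -0.65, and 0.50 without the cells of both sexes. In Endo, *Mecom* (2.48) and *Msi2* (2.07) were higher at E10.5 and *Meis1* differed by -1.08, so 2 were higher (20.9%) and 1 lower (19.2%), and *Msi2* had 1.31 without the cells of both sexes. In Mk only *Mllt3* passed, by -1.61, so 0 of 6 were higher (18.2%) and 1 lower (14.4%). All 6 primitive erythroid markers were lower in E10.5 Mk as well, with a median difference of -6.77 and a summed level of 44.3 to 142892 CPM in E8.5 Mk and 0 to 4999 CPM in E10.5 Mk, and their part in the *Mllt3* difference was not tested. In the mesoderm 0 of 6 were higher (6.85%) and 0 lower (6.62%) at E7.75. The flow cell changed with the stage between E8.5 and E10.5 and between E7.25 and E7.75. From E8.5 to E10.5 the gates of HPC, Endo (CD45 added) and Mk (CD41+ to CD41high) changed too. Stage, flow cell and gate cannot be told apart in these steps.

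**Figure D4:**
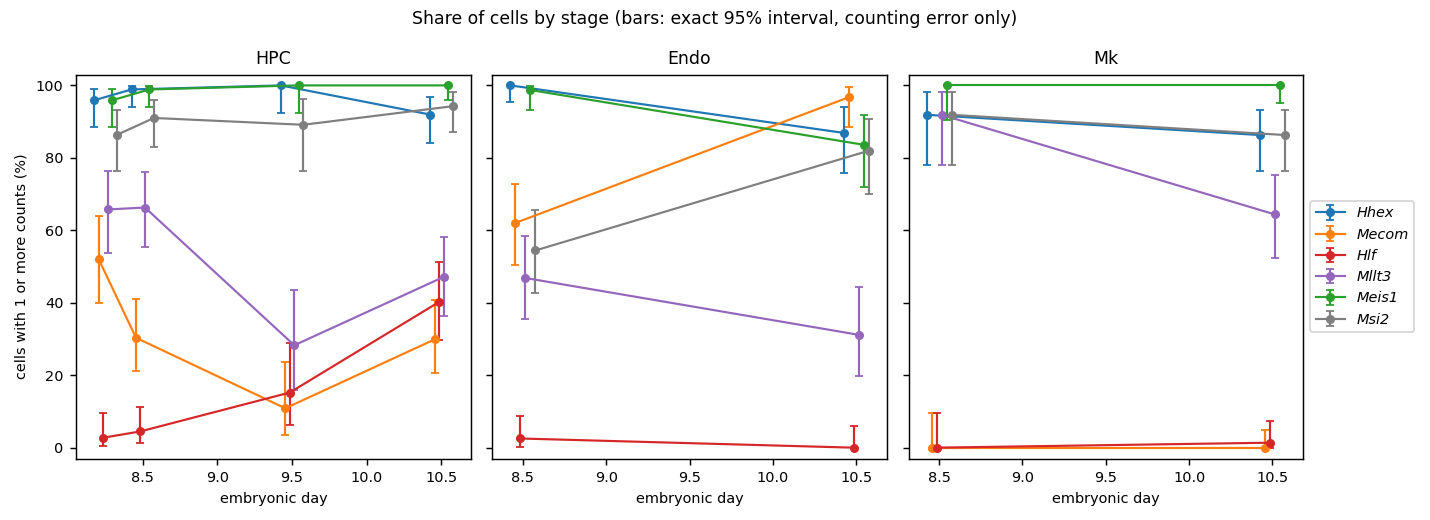
Share of cells (%) with 1 or more counts of each gene (vertical axis) by embryonic day (horizontal axis) in HPC, Endo and Mk, with exact 95% intervals as bars and a small offset between genes. *Hlf* was in 40.2% of E10.5 HPC, *Mecom* had its lowest HPC share at E9.5 and reached 96.7% in E10.5 Endo, and *Hhex* and *Meis1* stayed above 80% in all 3 panels.

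The lanes of the same mesoderm differed in several members. At E7.25, *Hhex* was in 69.9% of cells of lane 6 (58.0 to 80.1) and 44.6% of lane 7 (33.0 to 56.6). All 4 *Hlf* carriers were in lane 6. At E7.75, *Meis1* was in 45.3% of cells of lane 7 and 62.1% of lane 8, and *Msi2* was in 84.9% and 97.7%. These gaps are as large as several of the differences between the E7 stages, and each other population had no other lane to compare.

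In single cells the members mostly did not go together. Over populations of 50 or more cells, all but 4 pairs of members had a Spearman rho between -0.3 and 0.3, and 1 pair was over 0.5. That pair was *Mecom* and *Hlf* in E10.5 HPC, at 0.61 over 87 cells, followed by *Hlf* and *Msi2* there at 0.38. The median cell carried 4 members in HPC of E8.25, E8.5 and E10.5, in Endo of both stages and in E8.5 Mk. In E8.5 EryP it carried 2. Cells with all 6 numbered 16, of which 12 were E10.5 HPC, 2 were E8.5 HPC, 1 was E9.5 HPC and 1 was E8.5 Endo. The cells of a population share a lane, or 1 of 2 lanes in mesoderm.

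*Hlf* was carried by a subset of E10.5 HPC, and the split by it was chosen after seeing the data. It was in 35 of 87 cells, *Mecom* in 26 and *Hoxa9*, a HOX partner of MEIS1, in 25. *Mecom* was found in 60.0% of the cells with *Hlf* (42.1 to 76.1) and in 9.62% of the 52 without it (3.20 to 21.0). *Hoxa9* was found in 68.6% of those with *Hlf* and in 1.92% of those without, so that 24 of its 25 cells also carried *Hlf*. All 22 cells with *Hoxa7* carried *Hlf*, and 16 cells carried *Hlf*, *Mecom* and *Hoxa9* together. Spearman rho with *Hlf* was 0.78 for *Hoxa9* and 0.75 for *Hoxa7* over 87 cells.

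Other transcripts separated those cells less. *Hhex* was in 91.4% of the cells with *Hlf* and 92.3% of those without, *Meis1* was in all of them, and *Mllt3* was in 48.6% and 46.2%. *Msi2* had a mean of 60.4 CPM with *Hlf* and 28.3 CPM without. *Kit* was in all cells with *Hlf* and 86.5% of those without, *Runx1* in every cell, *Fgd5* in 77.1% and 53.8%, *Procr* in 8.57% and 9.62%, and the endothelial gene *Cdh5* in 57.1% and 30.8%, with intervals that overlapped. *Cd34* had a mean of 583 CPM with *Hlf* and 282 CPM without, and *Top2a*, a gene of dividing cells, had 999.5 and 994.6 CPM. The median depth was 1652878 counts with *Hlf* and 1595095 without, and 9 of 35 and 10 of 52 cells held transcripts of both sexes. Thinned to 840000 counts per cell, the share with *Mecom* was 64.0% against 4.35%, and that with *Hoxa9* 72.0% against 0%.

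**Figure D5:**
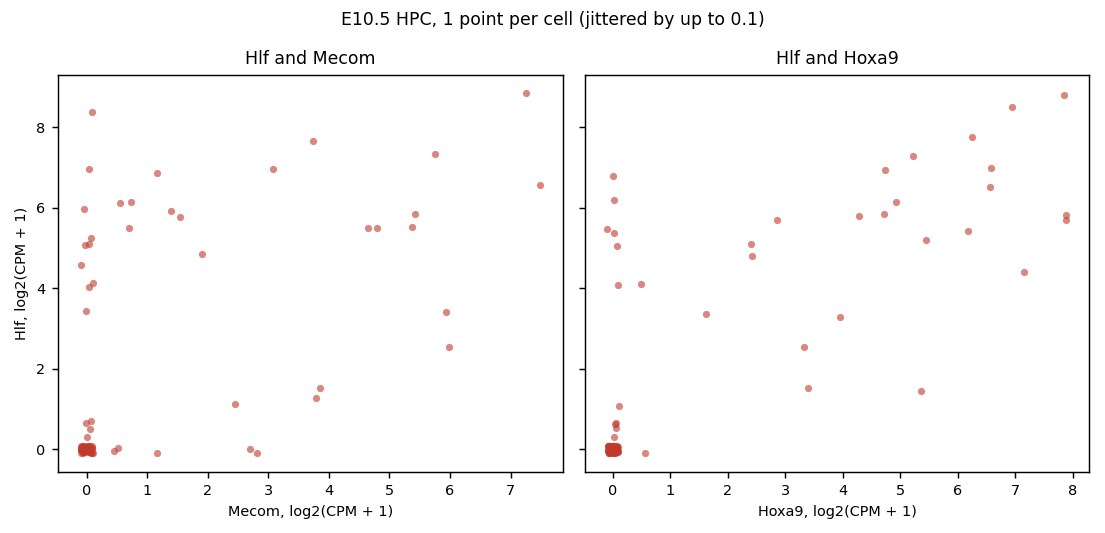
Level of *Hlf* (vertical axis, log2(CPM + 1)) against *Mecom* (left) and *Hoxa9* (right) in E10.5 HPC, 1 point per cell, with a jitter of up to 0.1. Nearly all cells with *Hoxa9* lay above 0 for *Hlf*, while 14 cells had *Hlf* without *Mecom* and 5 had *Mecom* without *Hlf*.

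*Mecom* in early progenitors went with endothelial transcripts of the same sample. Its rho with the mean level of the 8 endothelial genes was 0.66 in E8.25 HPC, 0.55 in E8.5 HPC and 0.26 in E10.5 HPC. Transcripts of both sexes were in 26 of 73 E8.25 HPC and 40 of 89 E8.5 HPC. These rho values were not recomputed without such samples, which may hold more than 1 cell. At E9.5, *Mecom* was in 0 of 20 cells with up to 2 of *Pecam1*, *Cdh5*, *Tek* and *Kdr* and in 5 of 26 cells with more. At E10.5 the *Mecom* share was 27.7% and 32.5%, and that of *Hlf* 38.3% and 42.5%. The means differed more, at 3.12 and 13.6 CPM for *Mecom* and 16.3 and 40.2 CPM for *Hlf*. With 10 or more counts asked of every gene, the E10.5 shares were 24.8 (*Mecom*) and 22.6 (*Hlf*) points higher in the cells with more. In mesoderm *Hhex* had a rho of 0.59 with both the endothelial and the progenitor genes at E7.25 and of 0.37 and 0.64 at E7.75.

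The genes whose means over the 13 populations ran closest to each member were ranked by Pearson r of log2(mean CPM + 1) among 12324 genes. *Hhex* was closest to *Fli1* (0.983), an ETS factor of blood and endothelium, then *Zfp710*, *Arhgef2*, *Socs5* and *Sept9*, and *Meis1* to *Klhl6* (0.973), *Etv6*, *Vill*, *Fli1* and *Twf2*. *Mecom* was closest to *Hmcn1* and to the endothelial sialomucin *Emcn* (both 0.976), then *S100a16*, *Trim16* and *Ankrd29*. *Hlf* was closest to *Pyhin1* (0.944), the cytokine receptor *Flt3*, *Gpr174*, *Qprt* and *Adgre4*. *Mllt3* ran with *Trib3* (0.944), *Urod*, an enzyme of haem synthesis, *Dmtn*, a protein of the red cell skeleton, *Abcb10* and *Gm29718*, and *Msi2* with *Tbck* (0.866), *Acot2*, *Nup54*, *Mzt2* and *Pex16*. Among the members, *Hhex* and *Meis1* were the closest to each other (0.940), and *Hhex* and *Mllt3* were opposed (-0.735). With 13 points the ranking moved easily, and Spearman's rho kept 0 to 2 of each 5.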

How the data were processed

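Single yolk sac cells were measured by full-length RNA sequencing on the Fluidigm C1 system with Nextera XT libraries. The authors aligned reads with Rsubread, summarised gene counts with featureCounts (GRCm38, Ensembl release 84), filtered cells and genes with scater, and deposited whole-number counts per gene for all captured cells and for the filtered cells. They also deposited a signal table, CPM scaled by scran size factors. Both were used as deposited. Doublets were not called. Cells with at least 5 counts of transcripts of each sex were counted as holding both sexes, and values were repeated without them. Where the name inside a title and the stage field differed, the stage field was used. Gene positions came from GENCODE annotation on GRCm38, and promoters from RefSeq.

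A group was a sorted population. Means, medians, shares with exact (Clopper-Pearson) 95% intervals and exact Poisson intervals were computed in Python 3.11.15 with pandas 2.3.3 and scipy 1.17.1. Fold values were log2 ratios of mean CPM + 1, and background shares counted every gene whose mean reached 1 CPM in either group. Named genes were the 6 members, fixed lists of paralogues, partners and stem cell genes, and the 5 closest genes of each member among those whose mean reached 10 CPM in a population. The members and lists were chosen with earlier results of these data known. Some results for listed genes are not reported here. The fold calculation was tested on simulated data.

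Alternatives were the pseudocount, the median in place of the mean, 10 or more counts, and thinning to 840000 counts per cell. Others were scaling by total count, all 1073 captured cells, and leaving out each mesoderm lane.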

Additional observations from a re-analysis of the deposited data

Results flagged for a closer look

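In the cells that the authors' filter removed, which had a median of 470230 counts and carry no comparison, 5 of the 6 members were detected above the 2.04% of cells that a count of 0 allows. *Hhex* was in 49.7% of them (exact 95% interval 41.3 to 58.0), *Mecom* in 13.6%, *Mllt3* in 32.0%, *Meis1* in 53.1% and *Msi2* in 51.7%, while *Hlf* was in 0.680%. These cells came from several populations, and their part in the results was tested only by adding them back. That moved 5 of 78 shares. In E8.5 Mk *Hhex* was then in 75.5% of cells, and *Mllt3* and *Msi2* in 71.7% each. *Mllt3* was in 94.0% of E8.5 EryP, and *Meis1* in 75.6% of E10.5 Mac.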

How the results depend on the processing

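No paired analysis was possible because the cell numbers in the titles only name cells and pair nothing between populations. No result turned its direction where it had passed 2-fold. Of 402 recomputed log2 ratios, 343 moved by less than the spread used, as did 254 of 312 shares and 55 of 67 counts of members past 2-fold. The count of members past 2-fold in E8.5 Endo against HPC was 4, and 1 with a pseudocount of 10 CPM (*Mllt3*). In E7.75 against E7.25 mesoderm it was 0, 1 by medians and 1 with a pseudocount of 0.1 CPM. With each lane left out in turn it was 0 to 1, with 1 without lane 6 of E7.25 and 1 without lane 7 of E7.75. In E8.5 against E8.25 HPC it was 1 (*Mecom*), 2 with a pseudocount of 0.1 CPM, and by medians 1 other gene (*Mllt3*, higher by 1.92). In E9.5 against E8.5 HPC it was 2, and 1 by medians. In E10.5 against E9.5 HPC it was 2, 1 by medians (*Msi2*, in place of *Hlf* and *Mecom*) and 1 with a pseudocount of 10 CPM (*Hlf*). In E10.5 against E8.5 HPC it was 2, and 1 by medians. In E10.5 against E8.5 Mk it was 1, and 2 by medians or with all captured cells. The causes were not tested. *Hlf* has a median of 0 in every population, so its differences vanish by construction when medians are used. Asking for 10 or more counts lowered *Mecom* from 96.7 to 62.3% in E10.5 Endo and *Hlf* from 40.2 to 31.0% in E10.5 HPC. *Mecom* fell from 62.0 to 35.4% in E8.5 Endo and from 52.1 to 37.0% in E8.25 HPC. Only E10.5 Endo kept *Mecom* in at least 50% of cells. The split of E10.5 HPC by *Hlf* was chosen after seeing the data, and so were its repeats with both-sex cells left out, with 10 counts or with thinning. With 10 counts, *Mecom* was in 37.0% and 5.00% of cells with and without *Hlf*. Thinning to 840000 counts per cell moved 8 of 78 shares. In E7.75 mesoderm *Mllt3* was then in 45.9% and *Meis1* in 44.3% of cells, under the 50% asked for presence. *Hhex* was in 87.5% of E8.25 HPC and *Msi2* in 63.2% of E10.5 Endo. Depth therefore limits some presence calls as well as statements on rare carriers. A single lane per population, or 2 in mesoderm, limits the rest.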
